A study of Homo sapiens with 6 samples.

Results

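The genes described here are 38 genes of the cellular response to low oxygen and of glycolysis, chosen as a named list and read on all 6 arrays of a study of the transcription factor MIST1. Each gene was read by its single-gene probe set with the highest mean, which was possible for 36 of the 38. No single-gene probe set was named for CA9 and SLC16A3, which were not analysed here. BNIP3 was dim on nearly every array and was not tested, so 35 of the 13738 genes tested were members of the list.

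The study transfected 2 human gastric cancer cell lines. AGS was established from a gastric adenocarcinoma, whereas HGC-27 came from an undifferentiated carcinoma of the stomach. In each line, MIST1 cells took up 3 µg of plasmid for MIST1 along with 1.5 µg of the GFP plasmid pmaxGFP by nucleofection and were sorted for GFP 24 h later. GFP control cells received 3 µg of empty vector and 1.5 µg of the same GFP plasmid and were sorted in the same way. Parental cells were untransfected, and their labels name no sort. Transfection was transient, RNA of the transfected cells was harvested 24 h after the sort, and no label gives an oxygen level or a glucose concentration. Every condition has 1 array per line, so a change has 2 measurements and no replicate within a line. P-values for conditions thus rest on how far 2 lines, with 1 array each, agree, and on a spread borrowed from all genes. The borrowed part weighs more, with 4.47 prior against 2 residual degrees of freedom.

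Deposited array medians lay between 49.12 and 51.96. The BHLHA15 probe set, which names the gene of MIST1, read 72.5 (MIST1), 75.9 (GFP control) and 66.3 (parental) in AGS and 58.7 (MIST1), 61.9 (GFP control) and 41.1 (parental) in HGC-27, so it does not check the labels of the MIST1 arrays. The sources used here do not say whether it reads the transfected construct. Summed intensity of 6 epithelial markers was 41690 to 48110 in AGS and 1460 to 1703 in HGC-27, where KRT18, KRT19, CLDN4 and EPCAM read at most 35.8. Most of the HGC-27 sum was KRT8, at 1349.5 to 1562, and CDH1 read 22.1 to 89.8 there. Summed intensity of 4 mesenchymal markers was 339.3 to 376.2 in AGS and 13870 to 15170 in HGC-27. Of these, CDH2 did not separate the lines, at 47 to 57.45 in AGS and 44.4 to 57.6 in HGC-27. Summed intensity of 3 fibroblast markers was 773.1 to 1426 in AGS and 9470 to 10650 in HGC-27. PTPRC, CD14, CDH5 and VWF, markers of leukocytes and endothelium, read at most 52.4 on any array, while CD3E read 41.6 to 66.7 and PECAM1 80.9 to 100.9. The lines were called by their labels throughout, and the part of these lineage differences in differences between AGS and HGC-27 was not tested.

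Cells sense oxygen through the hypoxia-inducible factors. Prolyl hydroxylases encoded by the EGLN genes use oxygen to mark the alpha subunits HIF1A and EPAS1 for degradation by the VHL ubiquitin ligase, so these subunits build up when oxygen is low, mainly at the level of the protein. The stabilised factors bind short DNA elements near genes for angiogenesis, glucose uptake, glycolysis, collagen modification and mitophagy. Many cancer cells run high glycolysis with lactate release even where oxygen is present.

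The core of the element bound by HIF is ACGTG or GCGTG on either strand. RefSeq promoter records (GRCh38.p14, 250 bases before to 50 after a transcript start) were matched for 34 of the 38 genes, in 62 records. No record was matched for VEGFA, NDRG1, BNIP3L and SLC2A3. At least 1 of the 2 motifs was present in 42 of the 62 records (67.7%) and in 48.4% of all 35116 records of the same length. EGLN3, P4HA2 and PGAM1 held neither motif in these windows. ACGTG overlaps itself on the other strand wherever the sequence CACGTG occurs. The E-box CATATG, a form bound by MIST1, was present in 1 of the 62 records, that of GPI (1.61%), and in 3.04% of all records. Stretches around a motif upstream of the start, the nearest one with 12 upstream bases on either side, are printed for 3 genes that were far brighter in HGC-27 and for 3 genes whose intensities differed less between the lines, with the motif letters in capitals.
ADM (chr11:10304960-10304988, plus strand): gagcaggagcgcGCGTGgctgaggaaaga
PLOD2 (chr3:146161314-146161342, minus strand): caaacagtccagACGTGgggcccaggagg
ENO2 (chr12:6914450-6914478, plus strand): acccgcgctcgtACGTGcgcctccgccgg
LDHA (chr11:18394478-18394506, plus strand): cgtgggttcccgCACGTccgccggccccc
PGK1 (chrX:78104053-78104081, plus strand): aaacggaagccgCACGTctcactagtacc
PFKP (chr10:3104578-3104606, plus strand): gacattctcagtGCGTGgGCGTGaacccc
The stretches were chosen for their motif, and a match is a run of letters and not a measured site.

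**Figure D1:**
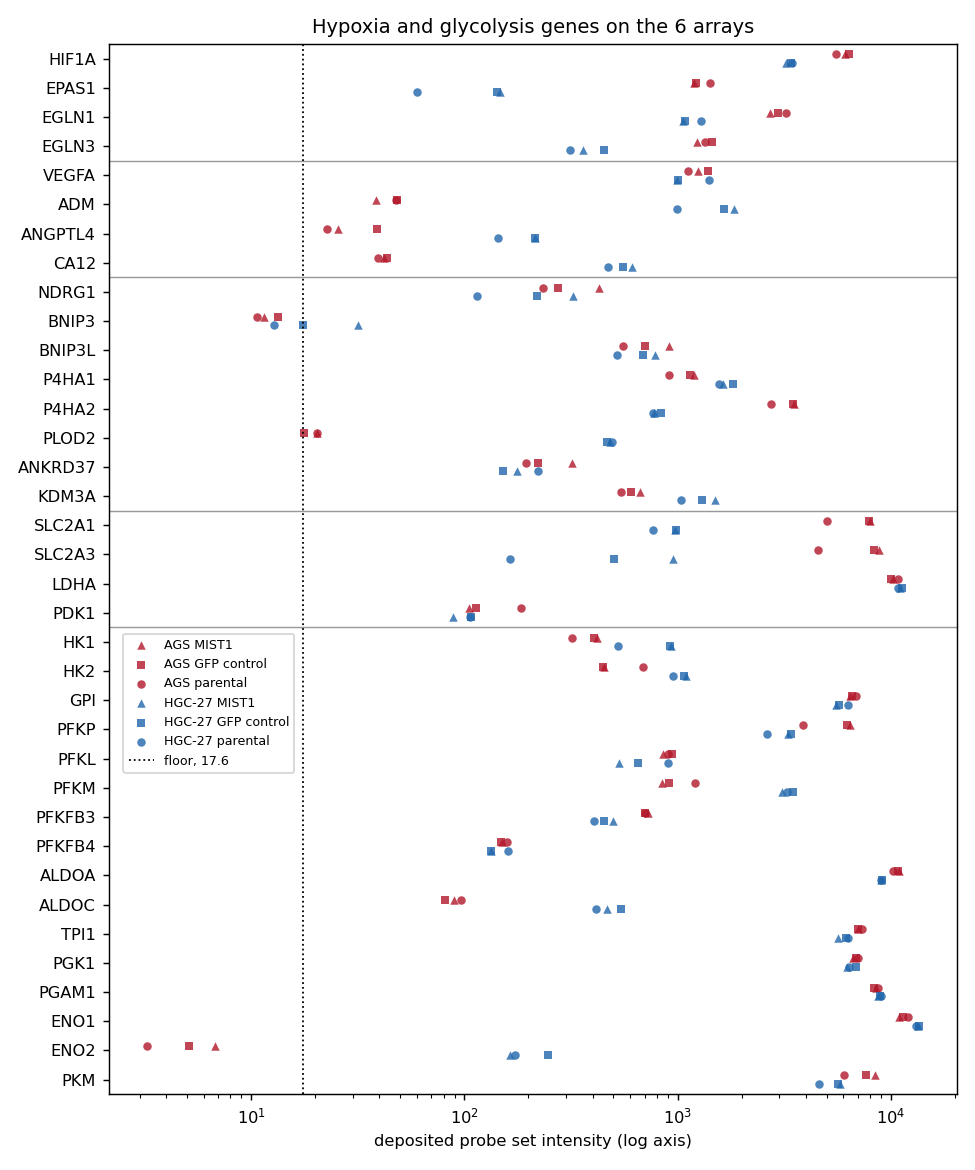
Deposited probe set intensity (log axis) of the 36 listed genes with a single-gene probe set on each of the 6 arrays, with horizontal lines between role groups and a dotted line at the floor of 17.6. ADM, ANGPTL4, CA12, PLOD2, ALDOC and ENO2 are brighter in HGC-27, EPAS1, P4HA2, SLC2A1 and SLC2A3 are brighter in AGS, and 7 genes (LDHA, GPI, ALDOA, TPI1, PGK1, PGAM1 and ENO1) lie above 5000 on every array.

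The first comparison asks which genes MIST1 raises over transfection alone. Among the listed genes, NDRG1 was the member with the largest mean difference between MIST1 and the GFP control, and the enzymes of glycolysis were close to level. In limma over all 6 arrays 0 of the 35 members passed, as did 0 of 13738 genes (0%), and 1 member (NDRG1) had an unadjusted p under 0.05, where 1.34% of all genes did. The median log2 difference was -0.004 over the 35 members and -0.017 over all genes. By sign, 10 members lay above the GFP control in both lines (24.5% of all genes) and 10 below it in both (32.7%), with 0 past 1.5-fold in both lines in either direction (0.211% and 0.0218%).

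NDRG1, a stress-responsive gene widely used as a hypoxia marker, read 427 (MIST1), 276 (GFP control) and 233 (parental) in AGS, and 325 (MIST1), 218 (GFP control) and 114 (parental) in HGC-27. The MIST1 array was the highest of its line in both lines, and the GFP control lay between MIST1 and parental. The ratio of MIST1 to the GFP control was 1.55 in AGS, and it was 1.49 in HGC-27 (log2 difference 0.60, SE 0.21, limma adjusted p = 1). The interval of the log2 difference from this fit was 0.11 to 1.09 at 95%. NDRG1 passed in the fit of only the 4 arrays compared (limma adjusted p = 0.0187, where 0.386% of genes were called higher and 0.0437% lower). The adjusted p over the 14 alternatives ran from 0.0187 to 1. Leaving out either parental array repeats this 4-array comparison, with the same log2 difference of 0.60, and is no separate check.

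BNIP3L, a receptor for the removal of mitochondria, read 909 (MIST1), 705 (GFP control) and 553 (parental) in AGS, and 786 (MIST1), 689.6 (GFP control) and 521 (parental) in HGC-27. It had the same order of conditions as NDRG1 in both lines (log2 difference 0.28, SE 0.12, limma adjusted p = 1). ANKRD37, a HIF-1 target, read 319.9 (MIST1), 223 (GFP control) and 195 (parental) in AGS, and 176 (MIST1), 152 (GFP control) and 222 (parental) in HGC-27. MIST1 lay above the GFP control in both lines, while in HGC-27 the parental array was the highest (log2 difference 0.37, SE 0.26, limma adjusted p = 1). KDM3A, a histone demethylase, read 664 (MIST1), 604 (GFP control) and 544 (parental) in AGS, and 1493 (MIST1), 1307 (GFP control) and 1043 (parental) in HGC-27, with MIST1 highest in both lines (log2 difference 0.16, SE 0.12, limma adjusted p = 1). These 3 genes and NDRG1 belong to the 7 tested members of the group of other hypoxia-induced genes, of which 5 were higher with MIST1 in both lines and 0 were lower in both.

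SLC2A3, the high-affinity glucose transporter GLUT3, separated the lines in this comparison. It read 8767 (MIST1), 8339 (GFP control) and 4542 (parental) in AGS, and 956 (MIST1), 502 (GFP control) and 164 (parental) in HGC-27. MIST1 was 1.90-fold the GFP control in HGC-27 and 1.05-fold in AGS (log2 difference 0.50, SE 0.33, limma adjusted p = 1). It passed without the AGS MIST1 array (log2 difference 1.11, adjusted p = 0.00423), a fit in which the lone MIST1 array is assumed to vary like the other groups, and the adjusted p over the alternatives ran from 0.00423 to 1. The probe set is named _x_at, which marks possible cross-hybridization, and the near-identical paralogue SLC2A14 cannot be told apart here. Both other SLC2A3 probe sets had the same pattern in HGC-27, at 470 (MIST1), 286 (GFP control) and 89.2 (parental) for one and 436 (MIST1), 243 (GFP control) and 80.0 (parental) for the other.

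EGLN3 and ANGPTL4 had negative mean differences and did not pass. EGLN3, the prolyl hydroxylase that HIF itself induces, read 1229 (MIST1), 1450.1 (GFP control) and 1345 (parental) in AGS, and 358 (MIST1), 454 (GFP control) and 312 (parental) in HGC-27. MIST1 was below the GFP control in both lines (log2 difference -0.29, SE 0.15, limma adjusted p = 1). ANGPTL4, a secreted inhibitor of lipoprotein lipase, read 25.6 (MIST1), 38.8 (GFP control) and 22.7 (parental) in AGS, and 215 (MIST1), 215 (GFP control) and 143 (parental) in HGC-27. In AGS it was dim and MIST1 was 1.51-fold lower than the GFP control, while in HGC-27 both transfected arrays were level (log2 difference -0.30, SE 0.22, limma adjusted p = 1). BNIP3, the mitophagy receptor related to BNIP3L, read 11.5 (MIST1), 13.4 (GFP control) and 10.7 (parental) in AGS, all under the floor. In HGC-27 it read 31.8 (MIST1), 17.5 (GFP control) and 12.9 (parental), so only the MIST1 array lay above the floor of 17.6.

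Among the 16 glycolytic enzymes, 4 lay above the GFP control in both lines with MIST1 (24.5% of all genes) and 5 below it (32.7%). The median log2 difference of the 16 was -0.022. Those with the largest mean differences were PFKL, a liver-type phosphofructokinase subunit (log2 difference -0.22, SE 0.18, limma adjusted p = 1), and ENO2, the neuronal enolase (log2 difference -0.30, SE 0.23, limma adjusted p = 1). ENO2 owes its value to HGC-27 alone, since all 3 AGS arrays lay under the floor. LDHA, which converts pyruvate to lactate, was within 1.01-fold of the GFP control in both lines.

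**Figure D2:**
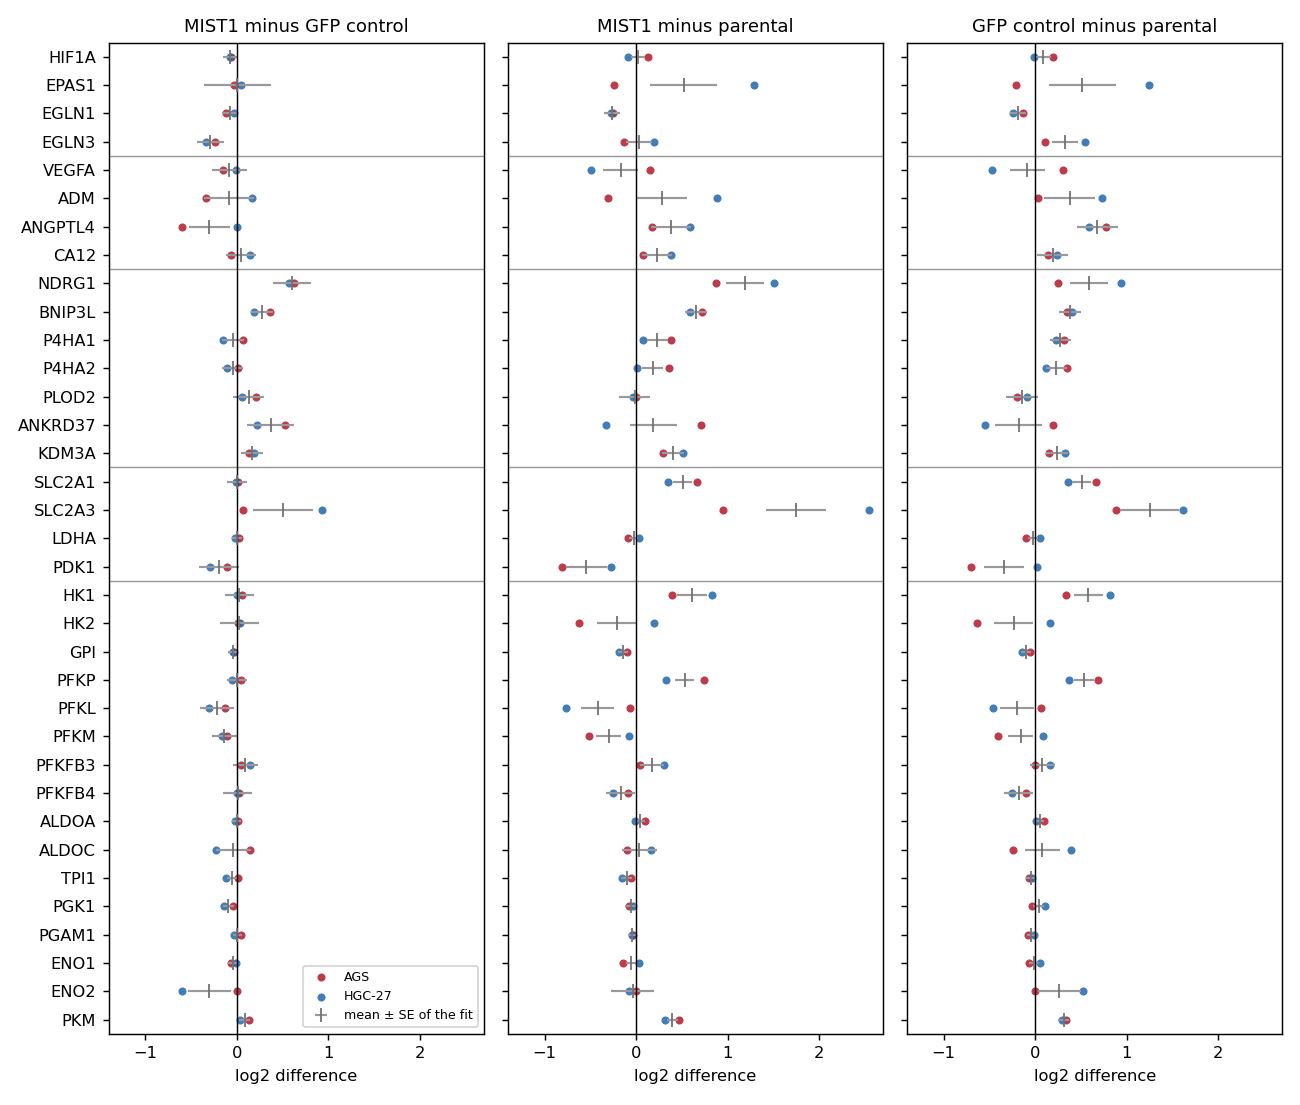
Log2 difference of intensity for the 35 tested genes in 3 comparisons, with a red point for AGS, a blue point for HGC-27 and a grey tick with a bar for the mean ± SE of the limma fit. In MIST1 minus GFP control NDRG1 lies at 0.63 (AGS) and 0.57 (HGC-27), and in both comparisons with parental cells SLC2A3 has the point farthest right, from HGC-27.

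The next comparisons set MIST1 and GFP control cells against untransfected parental cells. With MIST1 4 genes rose over parental cells, namely NDRG1, BNIP3L, SLC2A3 and the pyruvate kinase gene PKM, and 0 fell. That is 4 of 35 members, where limma called 2.19% of all genes higher and 1.21% lower. NDRG1, BNIP3L and SLC2A3 were at least 1.5-fold higher in both lines, as were 3.86% of all genes, and 0 were as much lower (1.74%). By sign, 13 were higher in both lines (36.5%) and 9 lower (25.7%). An unadjusted p under 0.05 was reached by 11 members and 26.1% of all genes. The glucose transporter SLC2A1 and the platelet-type phosphofructokinase PFKP lay just outside the threshold.

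NDRG1 rose 1.83-fold in AGS and 2.84-fold in HGC-27 over parental cells (log2 difference 1.19, SE 0.21, limma adjusted p = 0.0423). BNIP3L rose 1.64-fold in AGS and 1.51-fold in HGC-27 (log2 difference 0.65, SE 0.12, limma adjusted p = 0.0461). A second BNIP3L probe set read 498 (MIST1), 439 (GFP control) and 432 (parental) in AGS and 431 (MIST1), 418 (GFP control) and 366 (parental) in HGC-27, the same order with smaller differences. SLC2A3 rose 1.93-fold in AGS and 5.85-fold in HGC-27 (log2 difference 1.75, SE 0.33, limma adjusted p = 0.0461).

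PKM, which makes the last step of glycolysis to pyruvate, read 8392 (MIST1), 7628 (GFP control) and 6060.2 (parental) in AGS, and 5761 (MIST1), 5636 (GFP control) and 4612 (parental) in HGC-27. Parental was the lowest array of each line, and PKM rose 1.38-fold in AGS and 1.25-fold in HGC-27 with MIST1 (log2 difference 0.40, SE 0.061, limma adjusted p = 0.0407). The second PKM probe set was dimmer and read 247 (MIST1), 203 (GFP control) and 189 (parental) in AGS and 97.3 (MIST1), 68.8 (GFP control) and 72.9 (parental) in HGC-27, so in HGC-27 its GFP control did not lie above parental.

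SLC2A1, the main basal glucose transporter GLUT1, read 7967 (MIST1), 7926 (GFP control) and 5014 (parental) in AGS, and 977 (MIST1), 980.1 (GFP control) and 765 (parental) in HGC-27. Both transfected arrays were level and above parental in each line (log2 difference 0.51, SE 0.10, limma adjusted p = 0.0544 for MIST1 over parental), with a log2 difference of 0.67 in AGS and 0.35 in HGC-27. PFKP read 6434 (MIST1), 6218 (GFP control) and 3857 (parental) in AGS, and 3292 (MIST1), 3404 (GFP control) and 2627 (parental) in HGC-27. It too was level between the transfected arrays and lowest in parental cells (log2 difference 0.53, SE 0.11, limma adjusted p = 0.0522), with 0.74 in AGS and 0.33 in HGC-27. HK1, the widely expressed hexokinase, read 419 (MIST1), 404 (GFP control) and 319 (parental) in AGS, and 928 (MIST1), 926 (GFP control) and 524 (parental) in HGC-27, with parental lowest in both lines (log2 difference 0.61, SE 0.16, limma adjusted p = 0.0854).

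**Figure D3:**
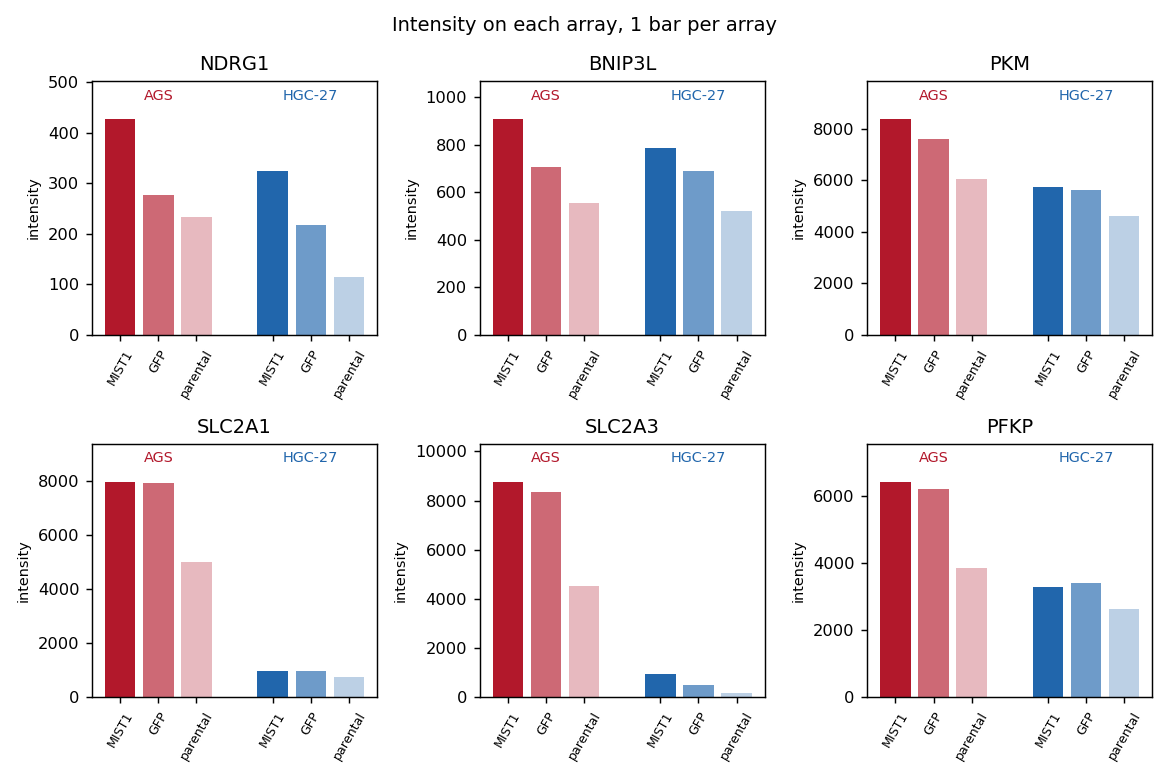
Intensity of NDRG1, BNIP3L, PKM, SLC2A1, SLC2A3 and PFKP, 1 bar per array on linear axes from 0, with MIST1, GFP control and parental from dark to light. Parental is the lowest bar of its line in all 6 panels, and NDRG1 and BNIP3L have MIST1 above the GFP control in both lines.

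These 4 calls sat close to the threshold. With no floor only PKM passed, and 0 members passed with the floor at the median, no filter, the mean of all probe sets, no variance trend or no block for cell line. The fit of only the 4 arrays compared called 5 members higher, SLC2A1 and PFKP in place of BNIP3L (4.06% of all genes, and 2.1% lower). Without the AGS MIST1 array 2 members passed as higher (2.4% of all genes). Without the AGS parental array 11 rose and 4 fell (27% and 11.9% of all genes), and without the HGC-27 parental array 11 rose and 5 fell (18.2% and 19.9%).

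For the GFP control over parental cells 0 of 35 members passed, where 0.269% of all genes did (0.146% higher and 0.124% lower), and 8 had an unadjusted p under 0.05, as did 23.2% of all genes. This comparison and the last share the parental arrays. SLC2A3 was 1.84-fold in AGS and 3.07-fold in HGC-27 (log2 difference 1.25, SE 0.33, limma adjusted p = 0.103). PFKP (log2 difference 0.53, SE 0.11, limma adjusted p = 0.0689), PKM (log2 difference 0.31, SE 0.061, limma adjusted p = 0.0671) and SLC2A1 (log2 difference 0.51, SE 0.10, limma adjusted p = 0.0729) followed. All 4 passed in the fit of only the 4 arrays compared, where 4.45% of genes were called higher and 2.21% lower. That fit has 1 residual degree of freedom, and its SE for SLC2A3 was 0.175, against 0.33 over all 6 arrays. Its p-values thus rest almost wholly on a spread borrowed from other genes and do not measure how far the 2 lines agree. Over the alternatives the adjusted p of these 4 genes reached 1. Leaving out either MIST1 array repeats this 4-array comparison and is no separate check. With the AGS MIST1 or the HGC-27 MIST1 array left out 4 members passed as higher (4.54% and 4.69% of all genes), and with the AGS or the HGC-27 GFP control array left out 1 did (1% and 0.313%). SLC2A3 and ANGPTL4 were at least 1.5-fold higher in both lines, as were 3.13% of all genes, and 0 members were as much lower (1.59%). By sign, 15 members were higher in both lines (37.3%) and 6 lower (23.5%). The median log2 difference was 0.078 over the members and 0.068 over all genes. The second ANGPTL4 probe set had the opposite direction in AGS, at 33.2 (GFP control) and 42.6 (parental). Without the AGS parental array 12 members rose and 5 fell in this comparison (28.1% and 10.7% of all genes), and without the HGC-27 parental array 10 rose and 3 fell (16.5% and 17%).

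PDK1, the kinase that closes pyruvate dehydrogenase, read 105 (MIST1), 113 (GFP control) and 184 (parental) in AGS, and 88.4 (MIST1), 108 (GFP control) and 107 (parental) in HGC-27. The AGS parental array stood above the others (log2 difference -0.54, SE 0.22, limma adjusted p = 0.183 for MIST1 over parental). A second PDK1 probe set did not show this, at 103.6 (MIST1), 101.1 (GFP control) and 106.2 (parental) in AGS. EGLN1, the main oxygen-sensing prolyl hydroxylase, read 2716 (MIST1), 2947 (GFP control) and 3232 (parental) in AGS, and 1061 (MIST1), 1084 (GFP control) and 1284 (parental) in HGC-27. Parental was the highest array of each line (log2 difference -0.26, SE 0.089, limma adjusted p = 0.132). Its other probe sets disagreed in HGC-27, where one read 498 (MIST1), 504 (GFP control) and 373 (parental).

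Parental arrays differed from transfected arrays in RNA species outside the list. MALAT1 read 529 (MIST1), 390 (GFP control) and 3685 (parental) in AGS and 382 (MIST1), 324 (GFP control) and 1566 (parental) in HGC-27. COX3 read 71.3 (MIST1), 70.0 (GFP control) and 376 (parental) in AGS and 67.7 (MIST1), 62.2 (GFP control) and 456 (parental) in HGC-27. Their part in the differences from parental cells was not tested. In HGC-27 the median of all genes was 0.125 above parental for the GFP control and 0.087 for MIST1 on the log2 scale, and 0.023 and 0.012 after quantile normalization.

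Over all tested genes, arrays of one line correlated at r = 0.971 to 0.996 and arrays of different lines at r = 0.704 to 0.73. In limma 14 of 35 members were higher in AGS than in HGC-27 and 12 lower, where 33.1% and 27.1% of all genes were. Of the 12, 5 (ADM, ANGPTL4, CA12, PLOD2 and ENO2) had no AGS array above the median of all values and passed the filter on dim genes only through HGC-27. Over all genes 870 of 945 such genes were called lower in AGS, so for these 5 the difference is given as a description with no p. Intensities of the lines did not overlap for 13 members higher in AGS (34.2% of all genes) and 13 lower (27.3%). The 4 oxygen-sensing genes and both glucose transporters were higher in AGS, while ADM, ANGPTL4, CA12, PLOD2, ALDOC and ENO2 were higher in HGC-27. The spread in this comparison is how far the difference between the lines varies over the 3 conditions, joined to a spread borrowed from all genes. No culture of a condition was repeated.

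**Figure D4:**
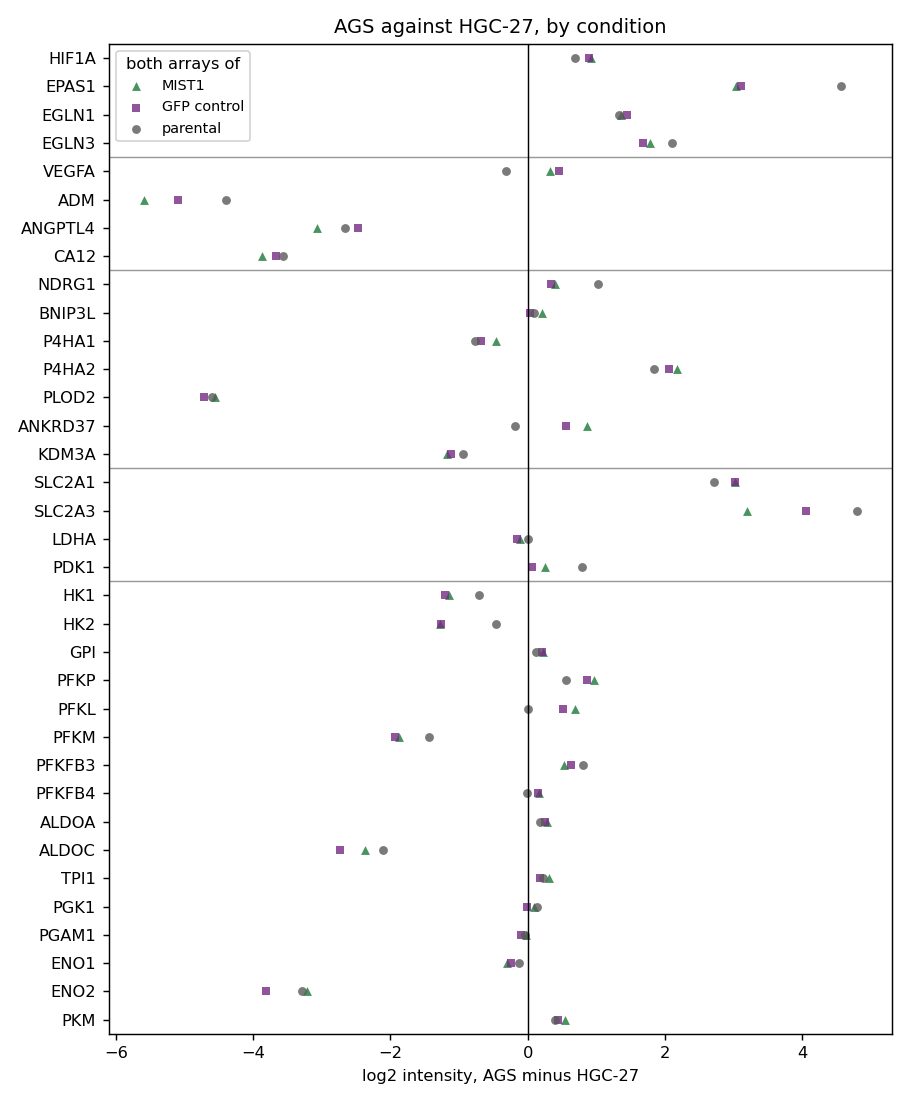
Log2 intensity in AGS minus HGC-27 for the 35 tested genes, with a point for each of the 3 conditions. The points run from below -5 for ADM with MIST1 to near 5 for SLC2A3 in parental cells.

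All 4 genes of oxygen sensing were higher in AGS in each condition. HIF1A, the alpha subunit of HIF-1, read 6097 (MIST1), 6356 (GFP control) and 5564 (parental) in AGS, and 3231 (MIST1), 3412 (GFP control) and 3443 (parental) in HGC-27 (log2 difference 0.84, SE 0.064, limma adjusted p = 4.91e-05). EPAS1, the alpha subunit of HIF-2, read 1199.6 (MIST1), 1227 (GFP control) and 1423 (parental) in AGS, and 146 (MIST1), 142 (GFP control) and 60.1 (parental) in HGC-27. It was 11.9-fold higher in AGS by the mean of the 3 conditions (log2 difference 3.57, SE 0.30, limma adjusted p = 7.37e-05), with the HGC-27 parental array as the lowest of all. A dimmer EPAS1 probe set had a smaller line difference, with log2 values of 1.75 (MIST1), 1.90 (GFP control) and 1.96 (parental). EGLN1 was 2.60-fold higher (log2 difference 1.38, SE 0.073, limma adjusted p = 8.89e-06) and EGLN3 3.61-fold (log2 difference 1.85, SE 0.12, limma adjusted p = 2.11e-05).

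Of the 4 tested genes for secreted and surface products, 3 read lower in AGS (ADM, ANGPTL4 and CA12). These 3 passed the filter on dim genes only through HGC-27, so their differences are a description with no p. VEGFA, the other gene, did not pass. ADM, the vasodilator peptide adrenomedullin, read 38.4 (MIST1), 48.5 (GFP control) and 47.6 (parental) in AGS, and 1841 (MIST1), 1647 (GFP control) and 997 (parental) in HGC-27. The log2 difference was -5.02, and every AGS value was at most 48.5. CA12, a membrane carbonic anhydrase, read 41.8 (MIST1), 43.6 (GFP control) and 39.6 (parental) in AGS, and 613 (MIST1), 553 (GFP control) and 470.1 (parental) in HGC-27, a log2 difference of -3.70. Its chosen probe set is named _x_at, and a CA12 probe set without that mark read 17.2 (MIST1), 15.5 (GFP control) and 16.3 (parental) in AGS and 381 (MIST1), 379 (GFP control) and 345 (parental) in HGC-27. Another without the mark had a smaller line difference, at 119 (MIST1), 88.3 (GFP control) and 46.7 (parental) in AGS. It read 306 (MIST1), 288 (GFP control) and 237 (parental) in HGC-27. ANGPTL4 had a log2 difference of -2.73. VEGFA, the vascular endothelial growth factor, read 1251 (MIST1), 1387 (GFP control) and 1125 (parental) in AGS, and 998 (MIST1), 1008 (GFP control) and 1399 (parental) in HGC-27. Its lines overlapped (log2 difference 0.16, SE 0.16, limma adjusted p = 0.421), with an interval of -0.22 to 0.53.

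The collagen-modifying enzymes split. PLOD2, a lysyl hydroxylase, read 20.4 (MIST1), 17.7 (GFP control) and 20.4 (parental) in AGS, and 483 (MIST1), 465 (GFP control) and 494 (parental) in HGC-27. AGS values lay just above the floor, with a log2 difference of -4.62. P4HA2, a prolyl 4-hydroxylase of collagen, read 3506 (MIST1), 3469 (GFP control) and 2737 (parental) in AGS, and 772 (MIST1), 834 (GFP control) and 767 (parental) in HGC-27, 4.07-fold higher in AGS (log2 difference 2.03, SE 0.093, limma adjusted p = 4.64e-06). Its relative P4HA1 read 1197 (MIST1), 1139.8 (GFP control) and 916 (parental) in AGS, and 1642 (MIST1), 1829 (GFP control) and 1557 (parental) in HGC-27 and was lower in AGS (log2 difference -0.63, SE 0.094, limma adjusted p = 0.00115). KDM3A was 2.10-fold lower in AGS (log2 difference -1.07, SE 0.097, limma adjusted p = 0.000109) and NDRG1 1.50-fold higher, though its lines overlapped (log2 difference 0.59, SE 0.17, limma adjusted p = 0.021). BNIP3L and ANKRD37 did not pass (intervals of -0.13 to 0.35 and -0.09 to 0.91).

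Both glucose transporters were higher in AGS. SLC2A1 was 7.56-fold higher in AGS (log2 difference 2.92, SE 0.085, limma adjusted p = 7.63e-07) and SLC2A3 16.2-fold (log2 difference 4.02, SE 0.27, limma adjusted p = 2.53e-05). The lowest AGS array of SLC2A1, parental at 5014, lay above the highest HGC-27 array at 980.1. LDHA read 10217 (MIST1), 10075 (GFP control) and 10831 (parental) in AGS, and 11076 (MIST1), 11234 (GFP control) and 10834 (parental) in HGC-27 and did not pass (log2 difference -0.091, SE 0.043, limma adjusted p = 0.11), with an interval of -0.19 to 0.01. PDK1 did not pass either (log2 difference 0.37, SE 0.18, limma adjusted p = 0.12).

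Hexokinase and phosphofructokinase isozymes differed between the lines. HK1 (log2 difference -1.02, SE 0.13, limma adjusted p = 0.000588) and HK2 (limma adjusted p = 0.00257, with log2 differences of -1.28 with MIST1, -1.26 with GFP and -0.47 in parental cells) were both lower in AGS. HK2, the inducible hexokinase, read 450.1 (MIST1), 445 (GFP control) and 691 (parental) in AGS, and 1094 (MIST1), 1067 (GFP control) and 954 (parental) in HGC-27. The muscle-type phosphofructokinase PFKM read 843 (MIST1), 909.7 (GFP control) and 1205 (parental) in AGS, and 3103 (MIST1), 3476 (GFP control) and 3275 (parental) in HGC-27 and was 3.37-fold lower in AGS (log2 difference -1.75, SE 0.11, limma adjusted p = 2.12e-05). PFKP was 1.74-fold higher in AGS (log2 difference 0.80, SE 0.087, limma adjusted p = 0.000261). PFKL read 858 (MIST1), 938 (GFP control) and 900.3 (parental) in AGS, and 530.2 (MIST1), 656 (GFP control) and 901 (parental) in HGC-27 and did not pass (log2 difference 0.40, SE 0.15, limma adjusted p = 0.0528).

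The brain-enriched isozymes ALDOC and ENO2 were both lower in AGS. ALDOC, an aldolase, read 89.8 (MIST1), 81.4 (GFP control) and 96.0 (parental) in AGS, and 465 (MIST1), 543 (GFP control) and 414 (parental) in HGC-27 (log2 difference -2.41, SE 0.16, limma adjusted p = 2.24e-05). ENO2 read 6.80 (MIST1), 5.12 (GFP control) and 3.26 (parental) in AGS, all under the floor, and 164 (MIST1), 248 (GFP control) and 172 (parental) in HGC-27. AGS was at least 10.9-fold lower, as the mean of the HGC-27 arrays over the floor. PFKFB3, which makes the activator of phosphofructokinase, read 724 (MIST1), 701 (GFP control) and 704 (parental) in AGS, and 499 (MIST1), 452 (GFP control) and 404 (parental) in HGC-27 and was higher in AGS (log2 difference 0.66, SE 0.11, limma adjusted p = 0.0019). PFKFB4, its relative, read 150.2 (MIST1), 148 (GFP control) and 159 (parental) in AGS, and 134 (MIST1), 134 (GFP control) and 159.8 (parental) in HGC-27 and did not pass (log2 difference 0.10, SE 0.13, limma adjusted p = 0.532).

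The central enzymes of the pathway differed little between lines or conditions. ALDOA, the ubiquitous aldolase, read 10938 (MIST1), 10866 (GFP control) and 10205 (parental) in AGS, and 8980.0 (MIST1), 9086 (GFP control) and 9041 (parental) in HGC-27, by an _x_at probe set (log2 difference 0.24, SE 0.040, limma adjusted p = 0.00202). GPI, which turns glucose 6-phosphate into fructose 6-phosphate, read 6427 (MIST1), 6592 (GFP control) and 6859.9 (parental) in AGS, and 5523 (MIST1), 5699 (GFP control) and 6307 (parental) in HGC-27 (log2 difference 0.18, SE 0.047, limma adjusted p = 0.0134). TPI1, triose phosphate isomerase, read 7050.2 (MIST1), 6993 (GFP control) and 7311 (parental) in AGS, and 5672 (MIST1), 6158 (GFP control) and 6291 (parental) in HGC-27 (log2 difference 0.24, SE 0.048, limma adjusted p = 0.00467). ALDOA, GPI, TPI1 and PKM passed as higher in AGS and ENO1 as lower, each by less than 1.5-fold.

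ENO1, the main enolase, read 10939.8 (MIST1), 11471 (GFP control) and 12072 (parental) in AGS, and 13438 (MIST1), 13545 (GFP control) and 13109 (parental) in HGC-27 (log2 difference -0.22, SE 0.043, limma adjusted p = 0.00442). PGK1, phosphoglycerate kinase, read 6678 (MIST1), 6862 (GFP control) and 7042 (parental) in AGS, and 6234 (MIST1), 6895 (GFP control) and 6389 (parental) in HGC-27 (log2 difference 0.077, SE 0.049, limma adjusted p = 0.213), and PGAM1, phosphoglycerate mutase, read 8552 (MIST1), 8308 (GFP control) and 8750.2 (parental) in AGS, and 8697 (MIST1), 8868 (GFP control) and 8986 (parental) in HGC-27 (log2 difference -0.052, SE 0.039, limma adjusted p = 0.291). PGK1 and PGAM1 did not pass, with intervals of -0.04 to 0.19 and -0.15 to 0.04. With LDHA, these were the 7 members above 5000 on every array, from 5523 to 13545.

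A further fit tested whether the change of transfected over parental cells differed between the lines. It rests on 1 parental array per line and takes its spread from the MIST1 and GFP control arrays, with 1 residual degree of freedom. In HGC-27 relative to AGS the change was higher for 9 of 35 members and lower for 6, where 19.8% and 6.86% of all genes were called, 26.6% in either direction. The median log2 value was 0.117 over all genes and 0.094 over the members. After quantile normalization the split was 7 higher and 9 lower, where 13.4% and 13.3% of all genes were. With no filter on dim probe sets or no variance trend 0 members and 0% of genes were called, and with the floor at the median 3 were higher and 1 lower (5.02% and 1.57%).

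EPAS1 and SLC2A3 had the greatest excess in HGC-27. EPAS1 in HGC-27 was 2.44-fold parental with MIST1 and 2.37-fold with GFP, while both AGS values lay below parental (log2 difference 1.49, SE 0.14, limma adjusted p = 0.000155). A second EPAS1 probe set was dim in HGC-27, at 28.9 (MIST1), 25.01 (GFP control) and 28.1 (parental), with no such difference. ADM followed the same way, with both transfected HGC-27 arrays above parental and a log2 difference of 0.95. Though counted among the calls, ADM passed the filter on dim genes only through HGC-27, so its value is a description with no p. HK2 lay above parental in HGC-27 and below it in AGS (log2 difference 0.81, SE 0.12, limma adjusted p = 0.00119). VEGFA (log2 difference -0.71, SE 0.11, limma adjusted p = 0.00144) and ANKRD37 (log2 difference -0.89, SE 0.19, limma adjusted p = 0.00738) lay below parental in HGC-27 and above it in AGS on both transfected arrays. A second bright VEGFA probe set, named _x_at, disagreed in HGC-27, at 960 (MIST1), 889 (GFP control) and 843 (parental). The dimmer VEGFA probe sets lay below parental there, like the chosen one.

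**Figure D5:**
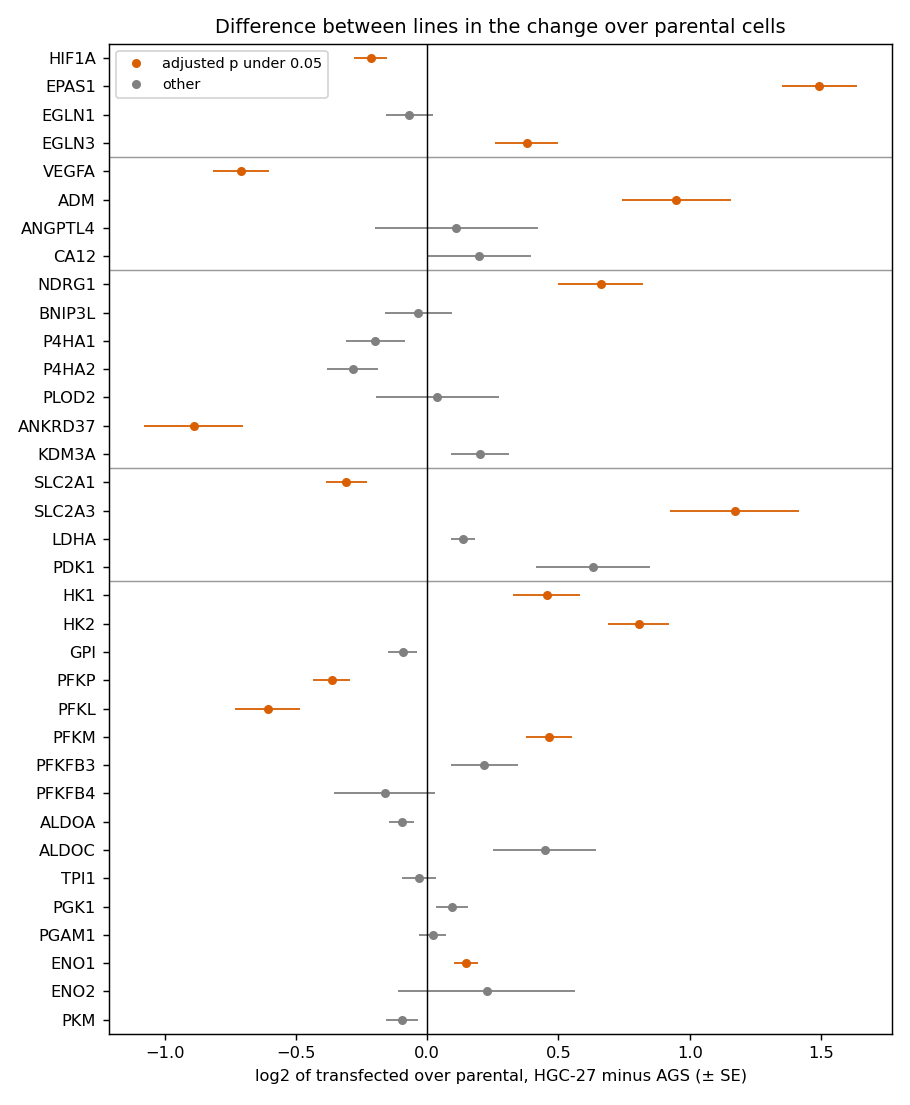
Difference between lines (HGC-27 minus AGS) in the log2 change of transfected over parental cells for the 35 tested genes, as points with ± SE, orange where the limma adjusted p was under 0.05. EPAS1 and SLC2A3 lie farthest right, and ANKRD37 and VEGFA farthest left.

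Other genes of these pathways were read from 3 lists. Of 13 HIF pathway regulators 11 were tested, of 26 further hypoxia-induced genes 23, and of 30 further glucose and pyruvate genes 21. With MIST1 over the GFP control 0 of the 55 passed, and those with the largest differences of one sign in both lines were VLDLR, a lipoprotein receptor (log2 difference -0.40, SE 0.24, limma adjusted p = 1), the muscle enolase ENO3 (log2 difference 0.40, SE 0.21, limma adjusted p = 1) and MXI1, an antagonist of MYC (log2 difference -0.36, SE 0.16, limma adjusted p = 1). The VLDLR value came from AGS (-0.77), where it read 19.8 (MIST1) and 33.7 (GFP control), near the floor, and in HGC-27 it was -0.036. With MIST1 over parental cells 1 passed, HMOX1, the haem oxygenase that HIF and oxidative stress both induce. HMOX1 read 4398 (MIST1), 4442 (GFP control) and 2282 (parental) in AGS, and 1038 (MIST1), 1039.6 (GFP control) and 282 (parental) in HGC-27. Both transfected arrays lay above parental in each line (log2 difference 1.41, SE 0.23, limma adjusted p = 0.0407). For the GFP control over parental cells 0 of the 55 passed, led by HMOX1 (log2 difference 1.42, SE 0.23, limma adjusted p = 0.0555), TMEM45A (log2 difference 0.82, SE 0.19, limma adjusted p = 0.084) and the hexokinase-like HKDC1 (log2 difference -0.63, SE 0.23, limma adjusted p = 0.167).

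Between the lines, 2 HIF regulators were higher in AGS (CITED2 and ELOB) and 3 lower (EP300, HIF1AN and CUL2). Of the 23 further hypoxia-induced genes 11 were higher in AGS and 8 lower, where 33.1% and 27.1% of all genes were. Of the 8, 4 (LOX, IGFBP3, VLDLR and STC2) passed the filter only through HGC-27. The coactivator EP300 read 209 (MIST1), 231 (GFP control) and 301 (parental) in AGS, and 673 (MIST1), 519 (GFP control) and 869 (parental) in HGC-27 (log2 difference -1.46, SE 0.14, limma adjusted p = 0.000123). LOX, the collagen cross-linking lysyl oxidase, read 33.6 (MIST1), 42.8 (GFP control) and 34.9 (parental) in AGS, and 2276 (MIST1), 2842 (GFP control) and 1671 (parental) in HGC-27, a log2 difference of -5.91 given with no test. RAB20, INSIG2, ERO1A, BHLHE40, HMOX1, AK4, GBE1, KDM4B, KDM4C, FAM162A and ZNF395 made up the higher group, and LOX, IGFBP3, VLDLR, STC2, TMEM45A, DDIT4, MXI1 and HILPDA the lower one. Of the 21 further glucose and pyruvate genes, PFKFB2, PGM1, PDP1, PDK3, TALDO1 and TIGAR were higher in AGS, and LDHB, BPGM, BSG and ADPGK lower. GAPDH read 15927 (MIST1), 16102 (GFP control) and 15291 (parental) in AGS, and 15046 (MIST1), 14937 (GFP control) and 14815 (parental) in HGC-27, level across all 6 arrays.

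Other probe sets of the same genes gave a further check. For 20 members, 36 further probe sets passed the filter. The mean difference had the sign of the chosen probe set for 28 of the 36 with MIST1 over the GFP control, 29 with MIST1 over parental, 26 with the GFP control over parental and 31 between the lines. Genes with an opposite probe set between the lines were VEGFA, PGK1 and ENO1.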

How the data were processed

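RNA of 6 cultures was measured on one-colour Affymetrix arrays, 5 µg per labelling. The deposited table holds 1 linear intensity per probe set and array. Per the series' design text the authors used dChip, and the background correction, summarisation and scaling of these intensities are not given in the sources used here. Probe sets were named from the platform annotation with symbols updated through RefSeq (41097 of 54675 had 1 gene, 1801 several, 11777 none). Values were floored at the 25th percentile (17.6) and taken to log2. Probe sets had to exceed the median of all values (50.53) on at least 2 arrays. A gene was tested by the brightest of its probe sets that did. limma 3.58.1 in R 4.3.3 (lmFit, eBayes with a variance trend) fitted condition and cell line over 6 arrays (2 residual and 4.47 prior degrees of freedom), with Benjamini-Hochberg adjustment over 13738 genes and a threshold of 0.05. Steps were tested on simulated data. Alternatives were the floor, the filter, quantile normalization, the mean of probe sets, no variance trend, no block, 4 arrays, and each array left out. All listed members were named, by role. The members and lists were chosen with earlier results of these data known.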

Additional observations from a re-analysis of the deposited data

Results flagged for a closer look

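For 15 of the 35 tested genes the change of transfected over parental cells differed between HGC-27 and AGS by the limma interaction test, where 26.6% of all genes did. Every such value is the HGC-27 change minus the AGS change in log2, and each rests on 1 parental array per line. All 15 calls were lost with no filter on dim probe sets and with no variance trend, and with the floor at the median 3 higher and 1 lower call were made. The change was higher in HGC-27 for EPAS1 (1.49), SLC2A3 (1.17), ADM (0.95), HK2 (0.81), NDRG1 (0.66), PFKM (0.47), HK1 (0.46), EGLN3 (0.38) and ENO1 (0.15). Of these, ADM passed the filter on dim genes only through HGC-27, so its value is a description. The median over all genes was 0.117, so ENO1 lay near the shift of all genes. After quantile normalization 7 members were higher and 9 lower, where 13.4% and 13.3% of all genes were. It was lower in HGC-27 for ANKRD37 (-0.89), VEGFA (-0.71), PFKL (-0.61), PFKP (-0.36), SLC2A1 (-0.31) and HIF1A (-0.21). For VEGFA a second bright probe set lay above parental in HGC-27 on both transfected arrays.

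Some of these genes differed from parental in one direction in both lines by unequal amounts, and others had opposite signs. NDRG1 with MIST1 was 2.84-fold parental in HGC-27 and 1.83-fold in AGS, and HK1 was 1.77-fold in HGC-27 and 1.31-fold in AGS. The log2 difference of SLC2A1 between MIST1 and parental was 0.35 in HGC-27 and 0.67 in AGS, and that of PFKP was 0.33 in HGC-27 and 0.74 in AGS. HK2 had a log2 difference of 0.20 in HGC-27 and -0.62 in AGS, and HIF1A one of -0.092 in HGC-27 and 0.13 in AGS. PFKL had -0.77 in HGC-27 and -0.069 in AGS, PFKM -0.078 in HGC-27 and -0.52 in AGS, and ENO1 0.036 in HGC-27 and -0.14 in AGS. EGLN3 had 0.20 in HGC-27 and -0.13 in AGS. All of these values are for MIST1 over parental. With the GFP control EGLN3 lay above parental in both lines (0.54 in HGC-27 and 0.11 in AGS). PFKM in HGC-27 (0.086) and PFKL in AGS (0.059) also had the other sign with the GFP control.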

How the results depend on the processing

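With 1 array per condition and line, the number of arrays limits the precision, and dim genes such as ENO2 in AGS have only a bound. Settings with fewer arrays or 1 residual degree of freedom estimate the spread anew, and the cause of their extra calls was not tested. For MIST1 over the GFP control, the count of members called higher ran from 0 to 1 when each array was left out in turn, and was 1 in the fit of only the 4 arrays compared. For the GFP control over parental, leaving out each array in turn gave 1 to 12 members higher and 0 to 5 lower, and the 4-array fit gave 4 higher. VEGFA, at -0.086 over all arrays and not called, was called higher at 0.27 without the HGC-27 parental array (limma adjusted p = 0.0309), a reversal, and was -0.44 without the AGS parental array. For MIST1 over parental, 4 members were higher, against 1 with no floor and 0 each with the floor at the median, no filter on dim probe sets, the mean of all probe sets, no variance trend and no replicate block. Quantile normalization gave 4. Leaving out each array in turn gave 2 to 11 higher and 0 to 5 lower.

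The replicate number used here is the cell line, so the block pairs arrays of one line. With no replicate block 0 members passed in any comparison of conditions. Between the lines 12 were then higher and 12 lower in AGS, where 29.5% and 23.9% of all genes were. Between the lines, counts ran from 11 to 17 higher and 10 to 14 lower in AGS over all alternatives. The share of all genes ran from 19.6% to 38.1% higher and from 15.4% to 34.5% lower. Leaving out each array in turn gave 12 to 17 higher and 12 to 13 lower (28.3% to 38.1% and 21.3% to 34.5% of all genes). For the difference between lines in the change over parental cells, 9 were higher and 6 lower (19.8% and 6.86% of all genes). With the floor at the median 3 were higher and 1 lower (5.02% and 1.57%), and with no filter or no variance trend 0 and 0. Leaving out arrays was not run there, since it would leave no residual degree of freedom. Of 490 member values for MIST1 over the GFP control, 0 lost and 4 gained a call. Of 490 for the GFP control over parental, 0 lost and 43 gained one, besides VEGFA. Of 490 for MIST1 over parental, 29 lost and 31 gained a call. Between the lines, 16 of 455 lost and 11 gained a call, and for the difference between lines 44 of 210 lost and 3 gained one.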
